A study of Mus musculus with 4 samples.

Results

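The 10 genes described here encode the major histocompatibility complex (MHC) class II pathway of the mouse: the classical chains H2-Aa, H2-Ab1 and H2-Eb1, the invariant chain Cd74, the DM chains H2-DMa, H2-DMb1 and H2-DMb2, the DO chains H2-Oa and H2-Ob, and the transactivator Ciita. They were chosen by name, with earlier results of these data known. All 10 were found among the 31053 genes of both RNA libraries, and the rule for them uses no measured value. Their levels were compared among dendritic cells (DCs), B cells, monocytes, macrophages and T cells, in cells with at least 1000 unique molecular identifiers (UMIs, each a counted RNA molecule), at least 500 genes and at most 10% mitochondrial UMIs.

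The cells were leukocytes sorted for CD45 from B16 melanomas, a transplantable mouse tumour line, growing in the flank of male C57BL/6 mice for 12 days. The hosts carried either the wild-type (WT) genotype or one labelled knock-out (KO) for ATPIF1, a protein that inhibits the ATP synthase of mitochondria and is the product of the gene Atpif1; the labels do not say how the allele was made or in which cells it is lost. Tumours of the mice of a genotype were pooled, and 1 5′ RNA library was made from each pool in droplets. With 1 library per genotype there is no replicate: no test between genotypes was possible, and every interval below is at the 95% level and covers counting error only.

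MHC class II molecules present peptides from the endocytic pathway to CD4 T cells. Their α and β chains assemble with the invariant chain, lysosomal proteases trim that chain, and DM exchanges the remaining fragment for peptide, which DO inhibits. Transcription of these genes depends on Ciita, which has no DNA-binding domain of its own and docks on RFX, CREB and NF-Y factors bound to the X and Y boxes of the promoters. DCs and B cells express class II constitutively, whereas monocytes and macrophages acquire it with differentiation and with interferon gamma. C57BL/6 mice make no surface I-E molecule because their Eα gene is defective, so H2-Eb1 RNA in these cells does not report I-E protein.

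Of the 10 genes, 8 lie within the MHC on chromosome 17, at chr17:34092379-34316674 of the assembly GRCm38.p6, the RefSeq build that corresponds to mm10. H2-Oa and H2-Eb1 are at its outer ends. Ciita is at chr16:10480014-10531064 and Cd74 at chr18:60803849-60812652.

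The promoters are shown because the genes share a sequence layout and, as described further on, part of their expression pattern. RefSeq promoter windows of GRCm38.p6, 250 bases before to 50 after the start, were matched for 7 of the 10 genes, H2-DMa with 2 windows and the others with 1. The Y box core TGATTGG was present once, on the strand of the gene, in 6 of these genes, with its first base 45 to 92 bases before the start, and in neither window of H2-DMa. It was in 7.82% of all 32851 windows of the same length, searched on both strands. The H2-DMa windows, from 34122582 and 34125268, lie inside the gene, which is recorded from 34119693. The sequence before that gene start was therefore not searched. The H2-DMb2 window, from 34144999, also lies inside its gene, which is recorded from 34143229. An X box core, written as AAC, 2 bases of any kind and ATGATG with letters chosen after these windows were read, was in 45 windows or 0.137%. Windows with that X core followed within 30 bases by the Y core on 1 strand numbered 4, or 0.0122%, and they belonged to H2-Eb1, H2-DMb1, H2-DMb2 and H2-Ob. The stretches from 40 bases before the Y core to 6 after it, 5′ to 3′ on the strand of each gene, carry the Y core and, where matched, the X core in capitals:

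H2-Eb1, chr17:34305766-34305818, plus strand: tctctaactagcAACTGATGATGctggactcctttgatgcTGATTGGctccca

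H2-DMb1, chr17:34153088-34153140, plus strand: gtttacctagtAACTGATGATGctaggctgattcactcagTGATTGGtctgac

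H2-DMb2, chr17:34145117-34145169, plus strand: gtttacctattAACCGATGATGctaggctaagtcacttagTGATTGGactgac

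H2-Ob, chr17:34238806-34238858, plus strand: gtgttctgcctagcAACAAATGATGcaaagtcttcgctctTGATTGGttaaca

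H2-Aa, chr17:34287861-34287913, minus strand: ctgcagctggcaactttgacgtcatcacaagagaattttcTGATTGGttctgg

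H2-Oa, chr17:34092294-34092346, plus strand: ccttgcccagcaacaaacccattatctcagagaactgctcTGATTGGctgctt

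The gap between the cores was 18 bases in H2-DMb1 and H2-DMb2, 17 in H2-Eb1 and 15 in H2-Ob. H2-Aa and H2-Oa had the Y core without a match to these X letters, which says only that those letters are not in the window. H2-DMb1 and H2-DMb2 are close copies of each other, so some of their reads may have been assigned to the wrong gene or dropped.

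The libraries held 35152477 (WT) and 24385843 (KO) UMIs and gave 4370 and 3211 cells, with median UMIs per cell of 4314 and 4266. Of these, 29 cell barcodes were shared between the libraries, against 19.0 expected from independent draws from the barcode list of the chemistry. Atpif1 itself did not fall with the KO label: its level in CPM, that is its UMIs scaled to a total of 1000000, was 576 in the cells labelled WT and 679 in those labelled KO, and higher with the KO label in 10 of 11 classes. Whether the 5′ reads fall outside the changed part of the gene is not given in the sources used here, so the genotypes below rest on the labels alone. Cells were gated on marker UMIs without any of the 10 genes, and 15 classes resulted. Cells positive for more than 1 lineage, 164 and 121, were left out as likely doublets. Every marker that defines a class was detected in it for both libraries among the DC subsets, B cells, C1q-high and resident-like macrophages. Natural killer cells with receptor transcripts fell into the T cell class.

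Of the 15 classes, 11 had at least 20 cells in both libraries. They were migratory DCs with 141 (WT) and 85 (KO) cells, cDC1 with 100 and 147, cDC2 with 122 and 97, B cells with 291 and 36, Ear2 Mgl2 macrophages with 31 and 43, C1q-high macrophages with 541 and 489, resident-like macrophages with 249 and 134, Ly6c2 monocytes with 160 and 138, Arg1 Mmp12 macrophages with 296 and 118, other monocytes or macrophages with 355 and 206, and T cells with 619 and 858. The 2 conventional DC types, cDC1 and cDC2, are the subsets best known for priming CD8 and CD4 T cells respectively, and migratory DCs are the mature, Ccr7-bearing state. The CPM of a gene in a class is its UMIs over all cells of that class and library, scaled by all UMIs of those cells.

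The classical chains were highest in conventional DCs in both libraries. H2-Aa, the α chain of I-A, was at 10057 CPM in cDC2 and 9012 in cDC1 of the WT library, and at 9637 and 8841 in the KO library. Migratory DCs followed with 8548 and 8235 CPM. Below the DCs the order differed between the libraries. In the WT library Ear2 Mgl2 macrophages (4506) and B cells (4430) came next with overlapping intervals, then the remaining monocytes or macrophages (3832), C1q-high macrophages (2437) and Ly6c2 monocytes (2271). In the KO library the remaining monocytes or macrophages (6176) came next, then Ear2 Mgl2 macrophages (5257), Ly6c2 monocytes (4266), and C1q-high macrophages (3673) and B cells (3547) with overlapping intervals. The lowest phagocyte class was the resident-like macrophages, at 665 and 1284 CPM. T cells, which make little or no class II in mice, gave 417 and 534 CPM.

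H2-Ab1, the β chain that pairs with H2-Aa, separated conventional from migratory DCs more than H2-Aa did. It was at 8750 (WT) and 8536 (KO) CPM in cDC1 and 8497 and 9356 in cDC2, but at 5269 and 5352 in migratory DCs. Accordingly, H2-Ab1 made up 25.6% and 26.3% of the classical UMIs of migratory DCs, against 35.0% and 34.4% in cDC1, and the intervals of these shares did not overlap. H2-Eb1 was at 7742 and 8342 CPM in cDC2, 7241 and 7452 in cDC1 and 6764 and 6743 in migratory DCs.

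Cd74, which also escorts class II to the endosome and acts as a surface receptor, kept the same order of the DC subsets. It was at 28321 (WT) and 26375 (KO) CPM in cDC2, 24813 and 22751 in cDC1 and 21379 and 19197 in migratory DCs. B cells had 14914 and 14002 CPM of Cd74. Relative to the classical chains, B cells carried more Cd74 than cDC1, cDC2 and migratory DCs, 144 (interval 139 to 149) and 154 (139 to 171) UMIs per 100 classical UMIs, against 99.2 and 91.6 in cDC1. Plasmacytoid DCs, with 148 (141 to 156) and 142 (128 to 158), overlapped the B cells.

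Ciita was found in the same classes at lower counts. It was at 141 CPM (148 UMIs) in cDC2 of the WT library and 144 CPM (107 UMIs) of the KO library, at 124 and 152 in cDC1, and at 102 and 98.2 in migratory DCs. B cells had 79.5 and 77.4 CPM, the latter from 5 UMIs. The intervals of neighbouring classes in the order of Ciita overlapped throughout, in both libraries. Between the ends of that order they were apart: resident-like macrophages had 5.58 and 10.0 CPM.

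**Figure D1:**
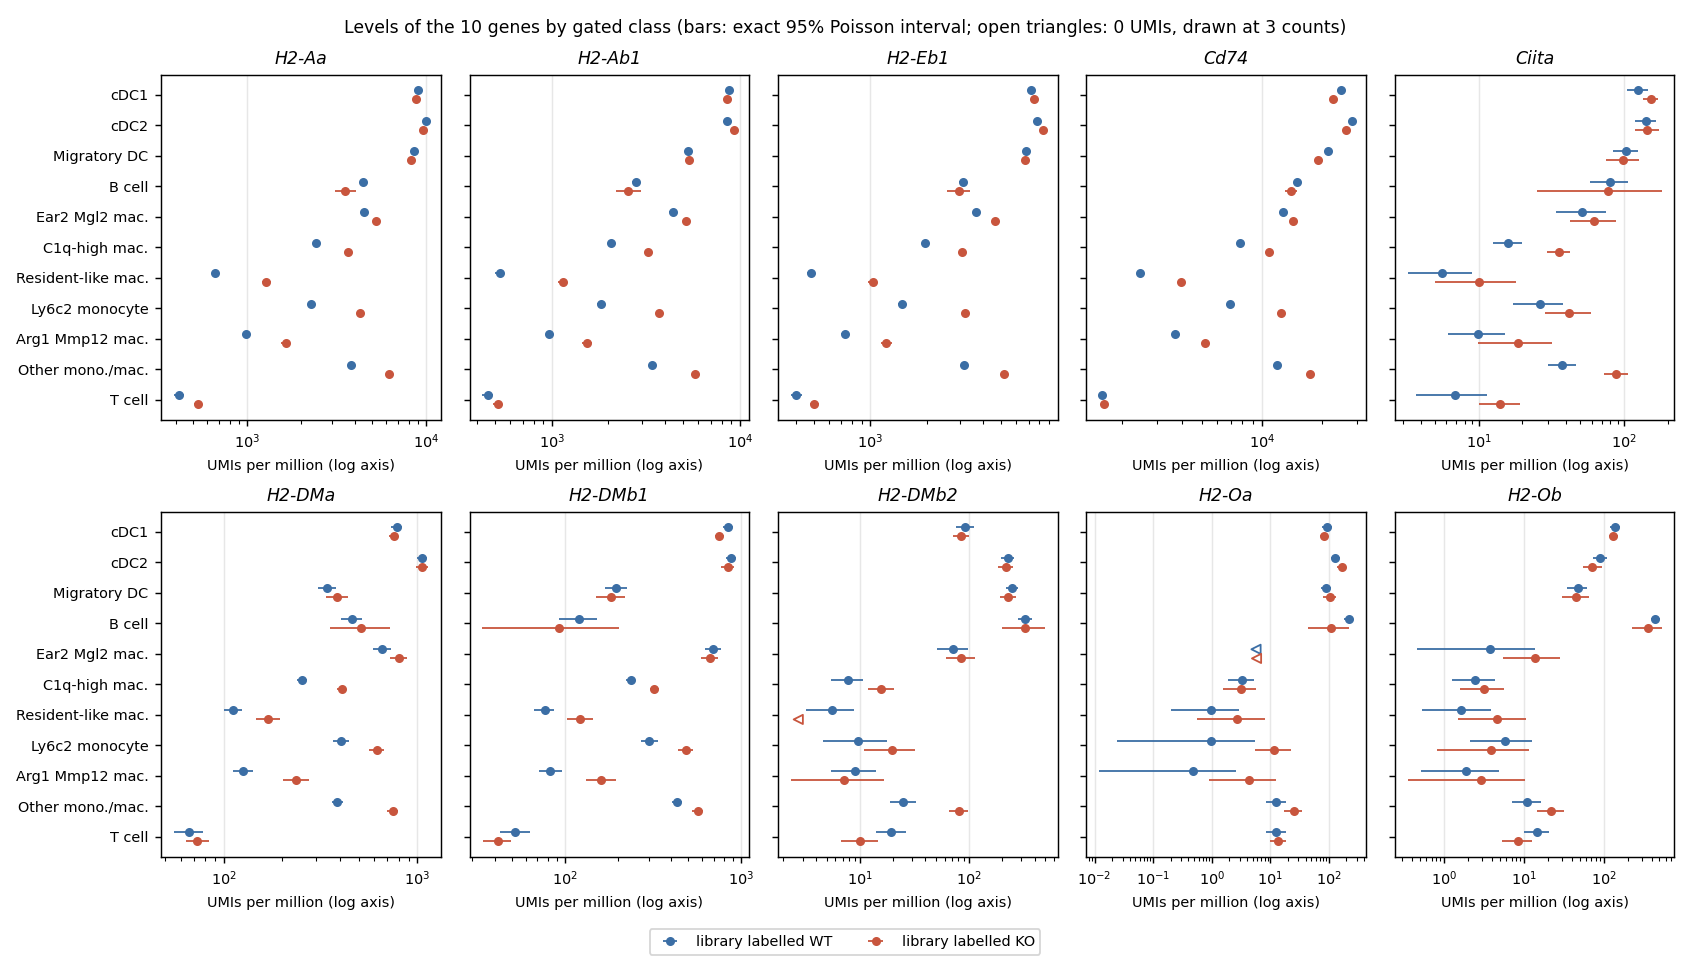
Each panel gives 1 of the 10 genes, with its level in CPM on a log axis and the 11 classes as rows. Points are summed levels of the library labelled WT (blue) and KO (red), bars are exact Poisson intervals, and the 2 points lie close together in the DC rows and apart in the C1q-high, resident-like, Ly6c2, Arg1 Mmp12 and other rows for the classical chains, Cd74 and H2-DMa.

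The DM genes H2-DMa and H2-DMb1 did not follow the classical chains in migratory DCs. H2-DMa was at 1055 (WT) and 1056 (KO) CPM in cDC2 and 783 and 754 in cDC1, but at 341 and 386 in migratory DCs, below the 655 and 798 of Ear2 Mgl2 macrophages. H2-DMb1 was at 879 and 836 CPM in cDC2 and at 195 and 182 in migratory DCs. H2-DMb2 was not lower there, at 251 and 230 CPM in migratory DCs, 227 and 217 in cDC2 and 92.4 and 85.4 in cDC1. Together, the DM genes gave 3.83 UMIs per 100 classical UMIs (interval 3.56 to 4.11) in migratory DCs of the WT library and 3.93 (3.58 to 4.30) of the KO library. In cDC1 this was 6.86 and 6.41, and in cDC2 8.22 and 7.72, so the 3 DC subsets kept their order in both libraries with intervals apart.

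The balance of H2-DMb2 and H2-DMb1 differed between classes. The H2-DMb2 share of the UMIs assigned to either β chain gene was 73.1% (185 of 253 UMIs, exact Clopper-Pearson interval 67.2 to 78.5) in B cells of the WT library and 77.8% (21 of 27) of the KO library. It was 56.3% and 55.9% in migratory DCs, 20.5% and 20.6% in cDC2 and 9.91% and 10.2% in cDC1. In C1q-high macrophages it was 3.19% and 4.67%, and in Ly6c2 monocytes 3.12% and 3.90%. The DC values thus differed between libraries by less than their intervals, whereas between cDC1, cDC2 and migratory DCs the intervals were apart. The share was higher with the KO label in other monocytes or macrophages, 12.5% against 5.51%, and in this class the summed cDC2 markers were also higher, 548 against 340 CPM; their part in the result was not tested. It was lower with that label in resident-like macrophages, 0 of 134 UMIs (interval 0 to 2.72%), against 17 of 251 or 6.77% (3.99 to 10.6).

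The DO genes, whose products restrain DM, were found in B cells and DCs. H2-Ob was at 444 (WT) and 356 (KO) CPM in B cells, 139 and 132 in cDC1, 90.7 and 72.4 in cDC2 and 47.1 and 45.1 in migratory DCs. H2-Oa was at 219 and 108 CPM in B cells, the latter from 7 UMIs, and at 130 and 166 in cDC2. The order of the DC subsets differed between the pair: the share of H2-Ob among the DO UMIs was 60.1% and 61.2% in cDC1 but 34.3% and 30.4% in migratory DCs. In the monocyte and macrophage classes neither gene passed 26 CPM in either library, and T cells, which should lack both, gave 12.7 and 13.7 CPM of H2-Oa. Ear2 Mgl2 macrophages had 0 UMIs of H2-Oa in both libraries.

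As a share of the summed DO and DM UMIs, DO made up 42.2% (interval 39.0 to 45.6) in B cells of the WT library and 33.3% (23.7 to 44.1) of the KO library. The share was 14.8% and 15.6% in migratory DCs, 11.9% in cDC1 of either library, and 9.26% and 10.2% in cDC2. In C1q-high macrophages it was 1.14% and 0.839%. The intervals of the libraries overlapped in all 11 classes.

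**Figure D2:**
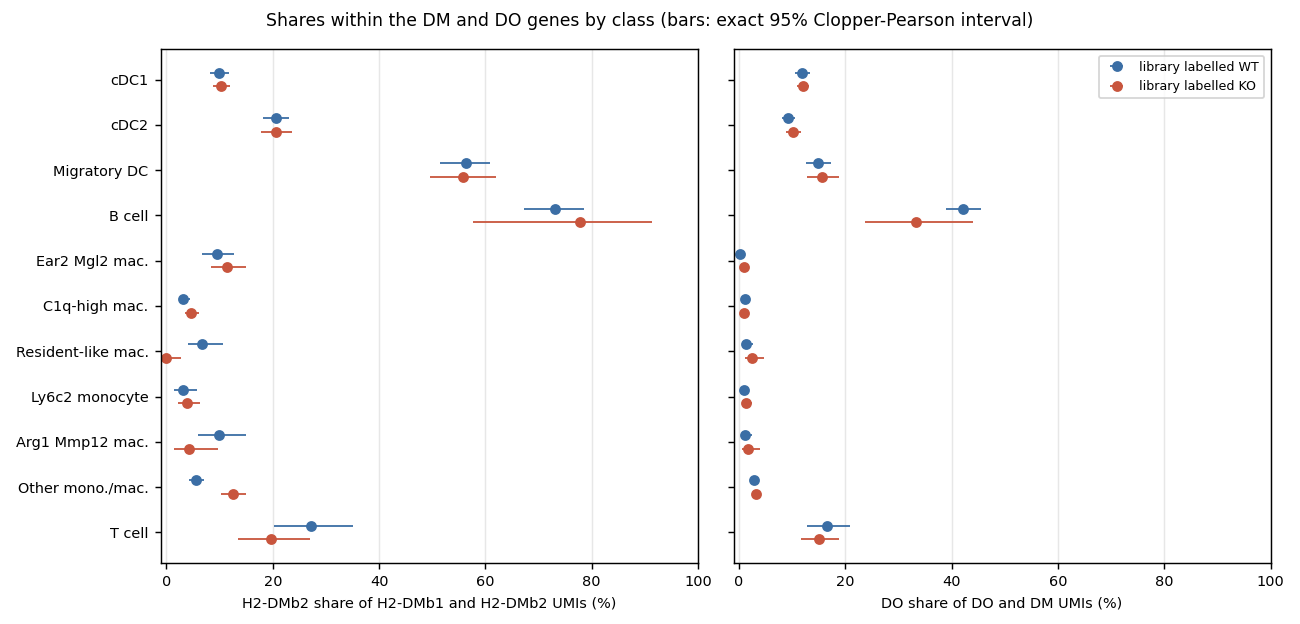
The left panel plots the H2-DMb2 share of the UMIs of both DM β chain genes, and the right panel the DO share of all DO and DM UMIs, in percent, with classes as rows and exact intervals as bars. B cells and migratory DCs lie above 50% on the left in both libraries, and B cells lie above all other classes on the right.

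Plasmacytoid DCs, the type I interferon-producing subset, had 92 cells in the WT library and 18 in the KO library and were not compared. Their H2-Aa was at 2384 and 2727 CPM and their Cd74 at 7553 and 8871. They had 12.4 and 13.1 DM UMIs per 100 classical UMIs, above the 6.86 and 6.41 of cDC1. Ciita gave 11 UMIs in the WT library and 0 in the KO library.

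Between the libraries, the 10 genes were close to equal in cDC1, cDC2 and migratory DCs. They were mostly higher with the KO label in most monocyte and macrophage classes. A gene counted as higher or lower at 1.5-fold, among genes with at least 20 UMIs over both libraries, and the share of all such genes past the same fold is the background of each class. In migratory DCs, 0 of 10 genes were higher and 0 lower, where 13.2% of 6047 genes were higher and 14.5% lower, and the median log2 ratio of the members was -0.06. In cDC1 it was 0 and 0 of 10, with a median of -0.07, where 9.69% of 7627 genes were higher and 7.89% lower. In cDC2 it was 0 and 0 of 10, with a median of -0.03, where 9.69% of 6622 genes were higher and 12.1% lower.

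The intervals of the abundant chains in DCs were narrow, but they cover counting error only and do not bound a difference between genotypes. For H2-Aa, the log2 ratio, KO label over WT label, was -0.03 (interval -0.06 to 0.01) in cDC1, -0.06 (-0.11 to -0.02) in cDC2 and -0.05 (-0.10 to -0.00) in migratory DCs. For H2-Ab1 and H2-Eb1 it was 0.14 and 0.11 in cDC2, both with intervals above 0. Cd74 lay below 0 in all 3 subsets, at -0.13 in cDC1, -0.10 in cDC2 and -0.16 in migratory DCs. Ciita in cDC1 gave 0.29 (-0.01 to 0.59).

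In B cells, 0 of 10 genes were higher, where 18.8% of 3722 genes were, and 1 was lower, where 28.3% were. The lower gene was H2-Oa, at 219 and 108 CPM with a log2 ratio of -1.02 (-2.36 to 0.07), an interval that holds 0. H2-Aa was at -0.32 (-0.52 to -0.13). Of the 2 measured genes listed for the turnover of surface class II, 1 was higher (0.88) and 1 lower, against the same shares of all genes. The lower one was Cd83, which stabilises surface class II by hindering its ubiquitination. It was at 776 CPM in the B cells labelled WT and 201 in those labelled KO, a log2 ratio of -1.95 (-2.87 to -1.16).

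Ear2 Mgl2 macrophages, a small class in which 90.3% and 100% of cells had at least 3 classical UMIs after thinning to 1000 UMIs a cell, had 0 of 8 measured genes higher and 0 lower, where 13.8% of 4898 genes were higher and 11.9% lower. Their median was 0.24. H2-Eb1 had the highest ratio there, 0.34 (0.25 to 0.42).

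C1q-high macrophages, the largest phagocyte class, had 6 of 10 genes higher and 0 lower, where 6.83% of 9850 genes were higher and 7.81% lower. H2-Aa was at 2437 CPM labelled WT and 3673 labelled KO, a log2 ratio of 0.59 (0.56 to 0.63). H2-Ab1 was at 2055 and 3252 (0.66) and H2-Eb1 at 1957 and 3102 (0.66). Ciita was at 16.0 CPM from 78 UMIs and 35.4 from 124 UMIs, a ratio of 1.15 (0.73 to 1.58). H2-DMa (0.68) and H2-DMb2 (1.01) were the other 2 past the fold, and Cd74 (0.47) and H2-DMb1 (0.44) were under it.

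Resident-like macrophages, gated on Folr2, Lyve1, Cd163, Ccl8 and Cbr2, had 7 of 7 measured genes higher, where 10.5% of 8734 genes were higher and 12.5% lower. H2-Ab1 was at 527 and 1144 CPM, a log2 ratio of 1.12 (1.01 to 1.23), and H2-Aa at 665 and 1284 (0.95). The other 3 genes, H2-DMb2, H2-Oa and H2-Ob, had under 20 UMIs in all. The ratio of H2-DMa, 0.60, was the lowest. Ly6c2, the monocyte gene, was at 14.8 and 122 CPM in this class, a ratio of 3.05 (2.55 to 3.57), and Ccr2 at 211 and 360 (0.78); their part in the result was not tested.

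Ly6c2 monocytes, which carry the marker of inflammatory monocytes and little C1q, had 8 of 8 measured genes higher, where 15.1% of 6374 genes were higher and 11.6% lower. H2-Eb1 was at 1475 CPM labelled WT and 3203 labelled KO, a log2 ratio of 1.12 (1.03 to 1.21). H2-Ab1 was at 1826 and 3702 (1.02), H2-Aa at 2271 and 4266 (0.91) and Cd74 at 6904 and 12408 (0.85). Ciita (27 and 32 UMIs) and H2-DMb2 (10 and 15 UMIs) were past the fold with intervals that hold 0. The summed C1q genes, markers of macrophages, were at 114 and 327 CPM in this class; their part in the result was not tested.

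Arg1 Mmp12 macrophages had 6 of 8 measured genes higher and 0 lower, where 16.5% of 7416 genes were higher and 11% lower. H2-Aa was at 988 and 1643 CPM (0.73) and H2-DMa at 126 and 237 (0.91). All measured genes of this class had a median log2 ratio of 0.11, and relative to it 5 of the 8 members stayed past the fold. Cd74 (0.51) and H2-DMb2 (-0.32, from 19 and 5 UMIs) were not past it.

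The remaining monocytes or macrophages had 8 of 10 genes higher and 0 lower, where 11% of 8203 genes were higher and 11% lower. They included the DO genes: H2-Oa was at 12.8 and 25.1 CPM, a log2 ratio of 0.98 (0.20 to 1.76), and H2-Ob at 10.95 and 22.0, 1.01 (0.17 to 1.85). These rest on 28 and 32 UMIs of H2-Oa and 24 and 28 of H2-Ob. For H2-Oa, T cells gave 12.7 and 13.7 CPM and empty droplets 20.6 and 19.3. For H2-Ob, T cells gave 14.7 and 8.41 CPM and empty droplets 22.8 and 17.4. Under alternative processing the ratio of H2-Ob ranged from 0.20 to 1.24. H2-DMb2 was at 25.1 and 80.9 CPM (1.69), and Ciita at 37.4 and 87.9 (1.23). As given above, cDC2 markers were higher with the KO label in this class.

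In T cells, a class that should lack these genes, 1 of 10 genes was higher and 2 lower, where 16.9% of 9137 genes were higher and 6.3% lower. All measured genes had a median log2 ratio of 0.15 there. The 30 (WT) and 42 (KO) T cells with the most class II held 90.4% (WT) and 87.7% (KO) of the summed UMIs of Cd74 and the classical chains. The other T cells had 305 and 442 CPM of these 4 genes, 3.23% and 3.01% of the level in empty droplets. Melanoma cells had 24.03 and 96.3 CPM of Cd74 and 0 UMIs of Ciita.

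**Figure D3:**
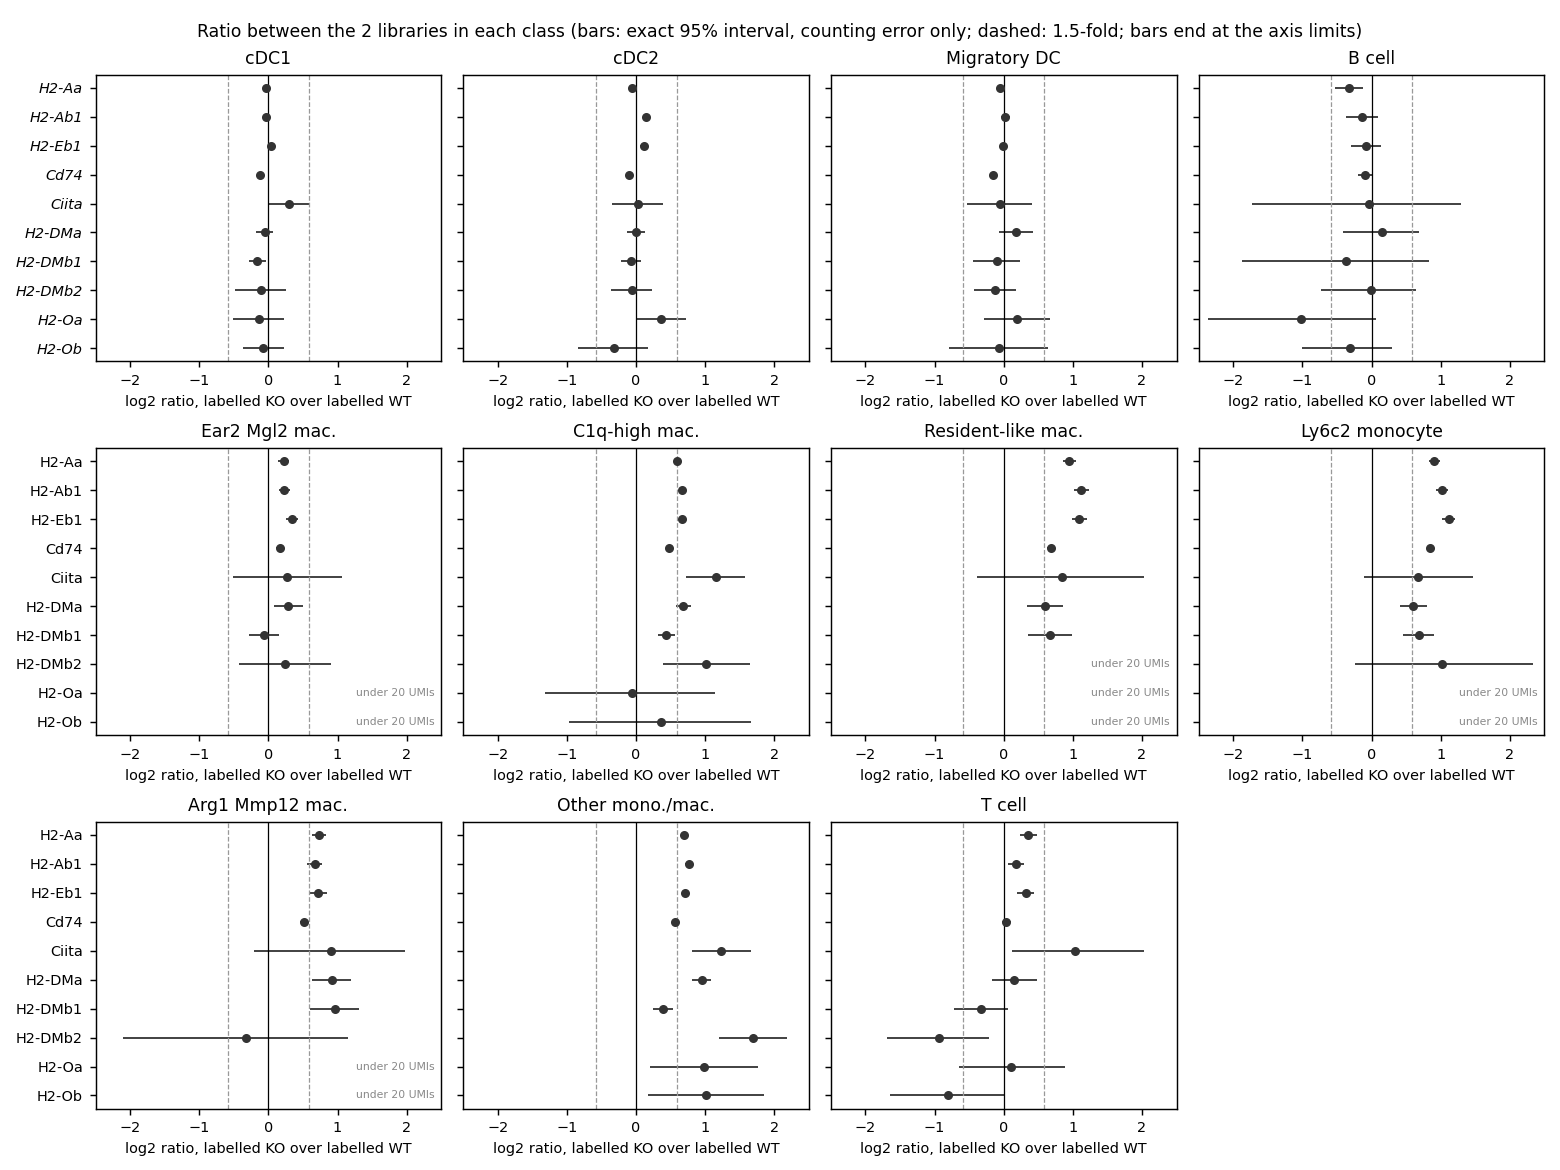
Each panel is 1 class and each row 1 gene, with the log2 ratio (KO label over WT label) on the x axis, exact intervals as bars and the 1.5-fold lines dashed. The points of the DC panels lie around 0, and those of the classical chains lie right of 1.5-fold in the C1q-high, resident-like, Ly6c2, Arg1 Mmp12 and other panels.

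Each gene thus had its own record over the 6 monocyte and macrophage classes. H2-Aa, H2-Ab1, H2-Eb1, H2-DMa and Ciita were each past 1.5-fold in 5 of 6, the exception being the Ear2 Mgl2 class. Cd74 was past it in 2 of 6, with a ratio above 0 in 6 of 6, from 0.16 to 0.85. The lowest, in Ear2 Mgl2 macrophages, ranged from -0.04 to 0.28 under alternative processing, so its sign was not stable. H2-DMb1 was past 1.5-fold in 3 of 6. For Ciita the interval lay above 0 in 2 of 6, the C1q-high and the remaining class.

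The smaller ratio of Cd74 was seen in nearly every class. Cd74 per 100 classical UMIs was lower in the library labelled KO in 10 of 11 classes, each with intervals apart, B cells being the exception. It was 147 and 114 in resident-like macrophages, 121 and 108 in C1q-high macrophages and 108 and 96.5 in cDC2. The same ratio was 127 and 114 in the empty droplets of the libraries, so the difference between the libraries was present there too; its part in the result was not tested. H2-Aa made up less of the classical UMIs with the KO label in 9 of 11 classes, with intervals apart in 3.

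Cells of a macrophage class differed widely in class II. After each cell was thinned to 1000 UMIs, the median C1q-high macrophage had 1 classical UMI (WT) and 6 (KO), and 209 of 541 and 129 of 489 cells had 0. Cells with at least 3 made up 41.4% (interval 37.2 to 45.7) and 59.7% (55.2 to 64.1). Among the cells with at least 3, the medians were 13 and 15, with quartiles of 7 and 22 and of 8.75 and 24.25. The intervals of the share were apart, but they cover only the counting of cells in 1 library per genotype. The quartiles of the levels overlapped, but they are a spread of cells and not an interval of the median. Share and level are therefore not judged on the same scale.

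Ly6c2 monocytes gave the widest gap of this kind. Cells with at least 3 classical UMIs made up 26.2% (19.6 to 33.8) in the WT library and 57.2% (48.5 to 65.6) in the KO library. The medians among those cells were 19 and 16. In resident-like macrophages the shares were 16.5% (12.1 to 21.7) and 26.9% (19.6 to 35.2), with medians of 8 and 7. In the remaining monocytes or macrophages both measures were higher with the KO label, the share at 42.3% and 68.0% and the median of the positive cells at 16.5 and 22.

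Conventional DCs were uniform by comparison. In cDC1 every cell of both libraries had at least 3 classical UMIs, with medians of 25.5 and 25, and in cDC2 the shares were 96.7% and 95.9% with medians of 28 and 27. Of B cells, 96.2% and 88.9% had at least 3. Migratory DCs were less even, with 81.6% and 90.6% and, in the WT library, 15 of 141 cells at 0. Of T cells, 3.23% and 4.31% had at least 3.

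The share of cells with any UMI of H2-Aa gave the same picture. After thinning it was 47.1% and 63.8% in C1q-high macrophages and 29.4% and 64.5% in Ly6c2 monocytes, against 6.46% and 10.1% in T cells. Without thinning these shares were 69.7% and 80.6%, 46.9% and 76.1%, and 13.4% and 18.8%. The median depth of the classes was 8130 and 6255 UMIs in C1q-high macrophages, 6605 and 5406 in Ly6c2 monocytes and 2785 and 2370 in T cells, so the macrophages labelled KO were the shallower ones.

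**Figure D4:**
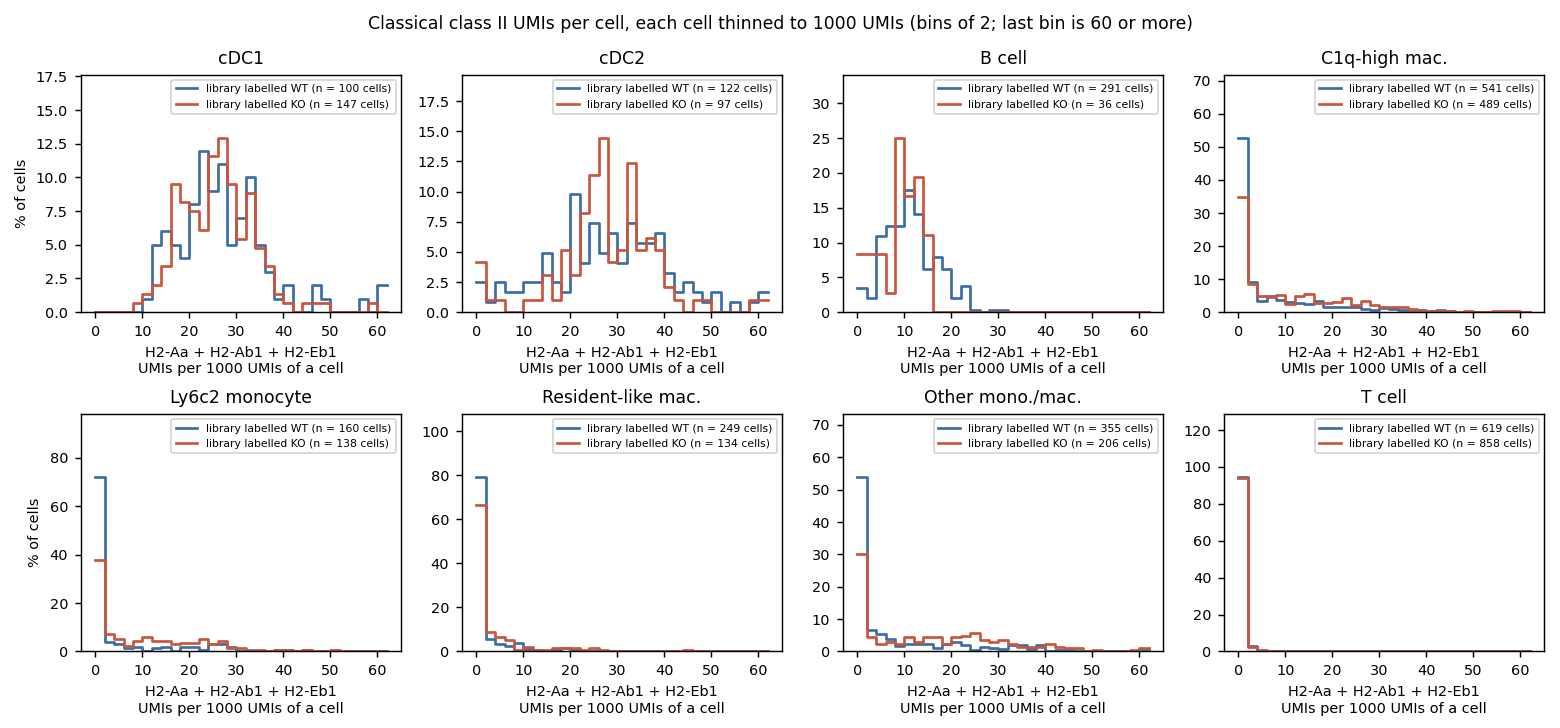
Each panel shows, for 1 class, the percent of cells (y axis) by the number of classical class II UMIs after thinning to 1000 UMIs a cell (x axis), as step lines for the 2 libraries. Most cDC1 and cDC2 cells lie away from 0 in both libraries, and the lines of C1q-high, resident-like and remaining phagocytes and of Ly6c2 monocytes have a peak in the first bin, 0 to 1 UMIs, that is lower in the library labelled KO.

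The class II-bearing C1q-high macrophages differed from the others in genes outside the pathway, which were counted in the lowest-ranked and the highest-ranked cells by thinned classical UMIs, 180 each of the WT library and 163 each of the KO library. The ranking describes cells within a library. The high cells had at least 6 classical UMIs in the WT library and at least 14 in the KO library. Ly6c2 was at 32.1 and 332 CPM in the low and high cells of the WT library, and at 110 and 400 in those of the KO library. Ccr2, the chemokine receptor of blood-derived monocytes, was at 191 and 605 and at 264 and 784. Spp1 (osteopontin) ran the other way, at 5034 and 956 and at 4410 and 345, as did Hmox1, the haem-degrading enzyme, at 2087 and 775 and at 2061 and 149. Arg1, the arginine-consuming enzyme, was at 1256 and 537 and at 2015 and 152. The C1q genes differed less, C1qb being at 4054 and 3793 and at 3722 and 3531, and C1qc at 2567 and 1797 and at 2159 and 1674. Mrc1 was at 252 and 265 and at 241 and 244. Ciita gave 3 and 71 UMIs in the low and high cells of the WT library and 1 and 94 of the KO library, but the ranking used genes that depend on it.

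Of 8 listed genes of interferon gamma signalling to Ciita, 2 were higher and 0 lower in C1q-high macrophages (6.83% and 7.81% of all genes). Their median log2 ratio was 0.27. In Ly6c2 monocytes 1 of 8 was higher and 0 lower (15.1% and 11.6%), with a median of -0.03. In cDC2 it was 3 and 0 of 8 (9.69% and 12.1%), and in migratory DCs 2 and 0 of 8 (13.2% and 14.5%). Irf1, an interferon-induced transcription factor that acts on Ciita transcription, was at 53.5 CPM labelled WT and 83.7 labelled KO in C1q-high macrophages, a log2 ratio of 0.65 (0.40 to 0.89). It was also higher in cDC2, at 89.7 and 168 (0.90), and in Ly6c2 monocytes it was at 152 and 167 (0.14). The part of Irf1 in the class II results was not tested. Irf8, a transcription factor of DC and monocyte development, was at 104 and 160 (0.62) in Ly6c2 monocytes, at 160 and 319 (0.99) in cDC2 and at 257 and 528 (1.04) in migratory DCs.

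The factors that Ciita docks on, Rfx5, Rfxap, Rfxank, Nfya, Nfyb, Nfyc and Creb1, were past the fold in both directions. In C1q-high macrophages 0 of 7 were higher and 1 lower, where 6.83% and 7.81% of all genes were. In Ly6c2 monocytes 1 of 5 measured was higher and 1 lower (15.1% and 11.6% of all genes), and in cDC2 1 of 6 was higher and 1 lower (9.69% and 12.1%). In migratory DCs 2 of 7 were higher and 3 lower (13.2% and 14.5%), with log2 ratios from -1.24 to 0.68. In cDC1 0 of 6 were higher and 1 lower (9.69% and 7.89%). The part of these factors in the class II results was not tested.

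Lysosomal enzymes that process the invariant chain and antigens were counted as Ctss, Ctsl, Ctsb, Ctsd and Lgmn. In C1q-high, resident-like and Arg1 Mmp12 macrophages 0 of 5 were past the fold in either direction, where 6.83%, 10.5% and 16.5% of all genes were higher and 7.81%, 12.5% and 11% lower. Cathepsin S (Ctss), which removes the invariant chain in DCs and macrophages, was at 1761 and 2256 CPM in C1q-high macrophages, a ratio of 0.36 (0.31 to 0.40). In Ly6c2 monocytes 2 of 5 were higher (15.1% of all genes), Lgmn at 452 and 812 CPM (0.84) and Ctsl at 343 and 608 (0.82). In migratory DCs 3 of 5 were lower (14.5% of all genes), and 2 of 5 in B cells (28.3%), in Ear2 Mgl2 macrophages (11.9%) and in the remaining monocytes or macrophages (11%). In cDC1 3 of 5 were lower (7.89% of all genes), Ctsd (-1.84), Ctsl (-1.58) and Lgmn (-1.24), and there Spp1, a gene of macrophages, was at 412 and 105 CPM; its part in the result was not tested.

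The list for the turnover of surface class II held 3 genes, Cd83 and ubiquitin ligases. In resident-like macrophages 1 of 3 was higher and 0 lower (10.5% and 12.5% of all genes). It was also 1 and 0 of 3 in C1q-high macrophages (6.83% and 7.81%) and Ly6c2 monocytes (15.1% and 11.6%). In Arg1 Mmp12 macrophages (16.5% and 11%) and the remaining monocytes or macrophages (11% and 11%) it was 0 and 0 of 3. The higher gene in resident-like macrophages was Cd83, at 54.5 and 119 CPM, a ratio of 1.12 (0.78 to 1.46). March1, the ligase that marks class II for degradation, was at 13.9 and 23.1 in C1q-high macrophages, 0.73 (0.25 to 1.22). H2-Eb2 was measured in migratory DCs (0.22) and B cells (-0.28). H2-Ea-ps and Ifi30, also on the lists, are not analysed here.

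The interferon gamma-induced GTPases moved with the library in nearly all myeloid classes. Of the 13 listed, 12 were measured in C1q-high macrophages and 12 were higher with the KO label, where 6.83% of all genes were, with a median log2 ratio of 1.66; Gbp2 was at 11.9 and 82.0 CPM (2.79) and Iigp1 at 1.43 and 32.3 (4.49). In cDC2 5 of 6 were higher (median 1.99), where 9.69% of all genes were. In Arg1 Mmp12 macrophages it was 5 of 5 (1.98) against 16.5%, and in Ly6c2 monocytes 4 of 9 (0.54) against 15.1%. In T cells 0 of 13 were higher and 2 lower, against 16.9% and 6.3%. Class II was therefore also compared in cells with 0 GTPase UMIs after thinning, a setting chosen after seeing the data.

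In those cells, H2-Aa in C1q-high macrophages had a log2 ratio of 0.35 in place of 0.59, and Ciita 0.39 in place of 1.15. Of the 10 genes, 0 were past 1.5-fold in place of 6. The summed GTPase genes were at only 122 (WT) and 398 (KO) CPM in all C1q-high macrophages. A thinned cell with 0 GTPase UMIs may therefore still express them, and the split does not separate expressing from other cells. The part of interferon gamma in the class II results was not tested. In Ly6c2 monocytes the ratio of H2-Aa was 1.05 in place of 0.91, and 6 of 7 measured genes were past the fold in place of 8 of 8. In Arg1 Mmp12 macrophages it was 0.77 in place of 0.73, and in resident-like macrophages 0.72 in place of 0.95. Within the 494 (WT) and 351 (KO) such C1q-high cells, the summed classical chains, thinned, were at 6684 and 8598 CPM, a ratio of 0.36 (0.29 to 0.43). In the 44 and 116 C1q-high cells with 1 to 2 GTPase UMIs it was 0.79 (0.63 to 0.95), and in the 3 and 22 with 3 or more 0.31 (-0.09 to 0.73). In Ly6c2 monocytes the ratio ran the other way, 1.29 (1.14 to 1.45) at 0 UMIs, 0.52 (0.27 to 0.77) at 1 to 2 and -0.49 (-1.03 to 0.05) at 3 or more, the last from 6 and 8 cells. Over single cells the rank correlation of classical with GTPase UMIs was 0.05 in 541 and 0.30 in 489 C1q-high cells, and 0.12 and 0.03 in Ly6c2 monocytes, both counts being sparse and from the same cells.

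**Figure D5:**
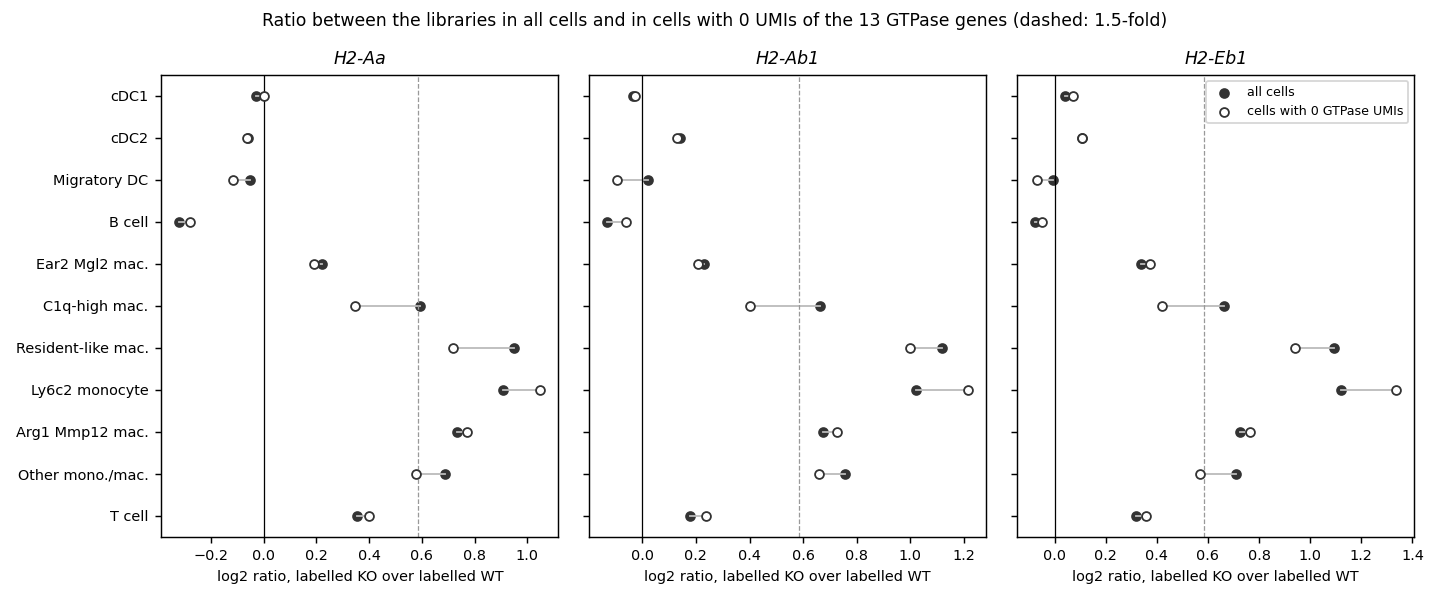
The panels give the log2 ratio (x axis) of H2-Aa, H2-Ab1 and H2-Eb1 in each class for all cells (filled) and for cells with 0 UMIs of the 13 GTPase genes (open), joined by a line. The open points of C1q-high macrophages lie left of the dashed 1.5-fold line, at 0.35, 0.40 and 0.42, and those of Ly6c2 monocytes lie right of their filled points.

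Other measures also differed between the libraries in the same classes. Class II RNA in empty droplets was higher with the KO label, H2-Aa at 1690 and 2550 CPM and Ciita at 46.1 and 73.1. Melanoma genes gave a free-RNA share of 2.47% and 7.07% in C1q-high macrophages and 1.29% and 1.51% in Ly6c2 monocytes, and subtracting it left the counts at 6 and 8. The neutrophil genes S100a8 and S100a9 were higher in the WT library, 317 against 12.0 CPM in C1q-high macrophages; their part in the results was not tested. The summed markers of the DC subsets differed in direction in C1q-high macrophages. Those of cDC2 were at 57.6 and 54.0 CPM, those of cDC1 at 44.1 and 28.9 and those of migratory DCs at 23.2 and 29.1. Their part in the result was not tested. In Ly6c2 monocytes cDC2 markers were at 91.2 and 161 CPM, with 0 of 4 at 0 in either library, and those of cDC1 at 0.97 and 5.23; their part in the result was not tested.

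Across the 25 pairs of class and library with at least 20 cells, log2(CPM + 1) of the classical chains ran together, with Pearson r from 0.99 to 1.00 between H2-Aa, H2-Ab1 and H2-Eb1. Ciita had r = 0.95 with their sum. H2-DMb2 had r = 0.88 with Ciita and 0.85 with H2-Ob, and 0.58 with its neighbour and copy H2-DMb1. H2-Oa and H2-DMb1 had the lowest value of all pairs of members, 0.34. These points share 2 libraries and their depth, and the values are descriptions.

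Among 8325 other genes, those most like the summed classical chains were Taok3 (r = 0.94), Prcp (0.92), Cd83 (0.91), Hhex (0.90) and Irf5 (0.89). Those most like Ciita were Napsa (0.89), Cd83 (0.87), Taok3 (0.87), Prcp (0.85) and Icosl (0.84). The list for H2-Ob was made of other genes, Btla (0.90), Rnf44 (0.86), Siglecg (0.85), A530040E14Rik (0.84) and Rab43 (0.83).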

How the data were processed

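The authors deposited unfiltered matrices of raw UMI counts for every gene and barcode. The file headers give software version 3.1.0, which the submitters' processing notes list as Cell Ranger, with the build mm10. The receptor libraries were not used. The 10 genes, the gates and the gene lists were chosen with earlier results of these data known. Cells were kept at 1000 UMIs, 500 genes and 10% mitochondrial UMIs. A gate was positive at 3 UMIs over 2 or more markers, and C1q-high meant 20 C1q UMIs per 10000. Counts were summed per class and library and divided by the class total. Intervals are exact Poisson (levels), conditional binomial (ratios) and Clopper-Pearson (shares). They were tested on simulated counts. Empty droplets were barcodes of 10 to 100 UMIs, 61754 and 57860. Named were all 10 members in classes of 20 or more cells, list genes past 1.5-fold with intervals excluding 0 (at most 8 a class), further list genes for their role, and the 5 most correlated genes. Alternatives changed the filters, gates, doublets (Scrublet in scanpy 1.11.5), scaling, weights, depth and free RNA. Python 3.11.15 with scipy 1.17.1 was used. A gene on 1 list is not reported here.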

Additional observations from a re-analysis of the deposited data

Results flagged for a closer look

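Some genes lay above 0 in one class and below 0 in another, in each case with intervals that exclude 0. The difference between the classes was not tested. For H2-Aa the log2 ratio, labelled KO over labelled WT, was 0.95 in resident-like macrophages and -0.32 in B cells. For Cd74 it was 0.85 in Ly6c2 monocytes and -0.16 in migratory DCs. For H2-DMb1 it was 0.96 in Arg1 Mmp12 macrophages and -0.16 in cDC1. For H2-DMb2 it was 1.69 in the remaining monocytes or macrophages and -0.94 in T cells, the latter from 40 and 29 UMIs.

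Cells that met no gate were outside every comparison but carried much class II RNA. The summed classical chains were at 13516 CPM in the 758 such cells of the WT library and 18945 CPM in the 692 of the KO library, at median depths of 2275 and 2266 UMIs. In these cells H2-Aa was at 4865 and 6523 CPM and Ciita at 76.9 and 106.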

How the results depend on the processing

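No paired analysis was possible because each genotype has 1 RNA library. Under 17 alternatives the count of genes at least 1.5-fold higher with the KO label was 0 in each in migratory DCs, cDC2, B cells and Ear2 Mgl2 macrophages. The following counts moved by over 1.5 times. At a 2-fold rule it was 2 in C1q-high and resident-like macrophages, 3 in Ly6c2 monocytes and the remaining monocytes or macrophages, and 0 in Arg1 Mmp12 macrophages. Thinning each cell to 1000 UMIs, with fewer genes measured, gave 2 in cDC1, 5 of 6 in Ly6c2 monocytes and 0 in T cells. Cells with 0 GTPase UMIs, chosen after seeing the data, gave 0 in C1q-high macrophages. Under thinning, Ciita in Arg1 Mmp12 macrophages turned to -0.26 and H2-DMb2 in T cells to 0.11; both had few UMIs. Of 101 ratios, 76 stayed within their interval in cells with 0 GTPase UMIs, 78 with a mean over cells and 93 after centring on all genes; under thinning 50 of 95 did, 43 moved and 2 reversed. The planned subtraction of free RNA from haemoglobin could not be run, since the empty droplets of the library labelled KO held 24 haemoglobin UMIs; melanoma genes took their place, also after seeing the data. Depth limits H2-Oa, H2-Ob, H2-DMb2 and Ciita in macrophages.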
